A study of Mus musculus with 10 samples.

Results

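The 9 Toll-like receptor genes *Tlr1* to *Tlr9* were followed in RNA-seq libraries of mouse intestinal organoids. The genes were chosen by their symbols and are 9 of the 47069 genes with counts in the table. Toll-like receptors recognize molecules of microbes and of damaged cells and signal through the adaptors MyD88 and TRIF to NF-kappaB and interferon regulatory factors. TLR1, TLR2, TLR4, TLR5 and TLR6 sit at the cell surface and sense lipoproteins (TLR2 paired with TLR1 or TLR6), lipopolysaccharide (TLR4) and flagellin (TLR5). TLR3, TLR7, TLR8 and TLR9 sit in endosomes and sense nucleic acids, TLR3 double-stranded RNA, TLR7 and TLR8 single-stranded RNA, and TLR9 DNA with unmethylated CpG. In the gut both the epithelium and the macrophages and other leukocytes beneath it express members of the family.

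There were 5 groups of 2 libraries, all from C57BL/6 organoids cultured for 50 days in Matrigel with Noggin, EGF and R-spondin-1. The groups were control (saline), DMBA (long; a polycyclic aromatic hydrocarbon carcinogen), TAM short and TAM long (tamoxifen, in the labels with the words dosage-sensitive), and DMBA+TAM (both agents). Per the study's methods the mice were *Lgr5-EGFP-CreERT2* animals with floxed *Ppp2r1a* (flox/flox), so that tamoxifen deletes *Ppp2r1a*, the scaffold subunit of protein phosphatase 2A, in cells that express the Cre from the *Lgr5* locus, and controls carry the same alleles. The libraries are titled NS in control, NL in DMBA, DSS_S in TAM short, DSS_L in TAM long and Lgr5 in DMBA+TAM. What these titles and the words short and long mean, and which part of the intestine each culture came from, are not stated in the sources used here. The methods give an age only for mice injected with tamoxifen. In the paper's account the agents were given to the organoid cultures, and the age of the mice behind these cultures is not stated. The comparisons set the groups labelled with each agent, and with both, against control and against each other.

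The libraries did not all carry the transcripts of intestinal epithelium. Library totals were 8828247 to 10923673 counts in 8 libraries but 1592366 and 1915270 in DMBA+TAM, and there 3 counts correspond to 1.58 and 1.32 units of CPM, counts scaled to the TMM total of the library (normalized CPM), against 0.259 to 0.379 in the other libraries. The 7 epithelial markers (*Epcam*, *Cdh1*, *Krt8*, *Krt18*, *Krt19*, *Vil1*, *Cldn7*) summed to 11798 to 18792 normalized CPM in the other groups and to 26.9 and 21.6 in DMBA+TAM, and all 7 were lower there than in control. Macrophage markers (6947 and 6584) and fibroblast markers (30614 and 31523) were far higher there. When DMBA+TAM is set against any other group, treatment and the cell types in the libraries therefore cannot be told apart. The 7 markers of the small intestine summed to 14485 to 21827 in control and TAM short and to 148 or less in DMBA and TAM long, whereas the 5 markers of the colon summed to 49.3 or less in control and TAM short and to 2130 to 11716 in DMBA and TAM long. The library titles with S thus went with small intestine markers and those with L with colon markers. Treatment and the intestinal region these markers belong to therefore cannot be told apart when DMBA or TAM long is set against control. Within the small intestine list TAM short also differed from control, with 1 marker called higher and 4 lower of 7. *Fabp6*, the bile acid-binding protein of the ileum, had a mean of 8406 normalized CPM in TAM short and 1.53 in control, whereas *Fabp1* had 3.67 and 2173, *Lct* 1.97 and 1417, and *Apoa4* 236 and 2050, so treatment and region cannot be told apart there either. *Ppp2r1a* itself stood at 123 and 129 normalized CPM in control, 167 and 153 in DMBA, 131 and 147 in TAM short, 169 and 157 in TAM long, and 129 and 133 in DMBA+TAM. It was not lower in any tamoxifen group than in control, but counts over the whole gene and over all cells do not check a deletion of some exons in *Lgr5*-expressing cells.

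**Figure D1:**
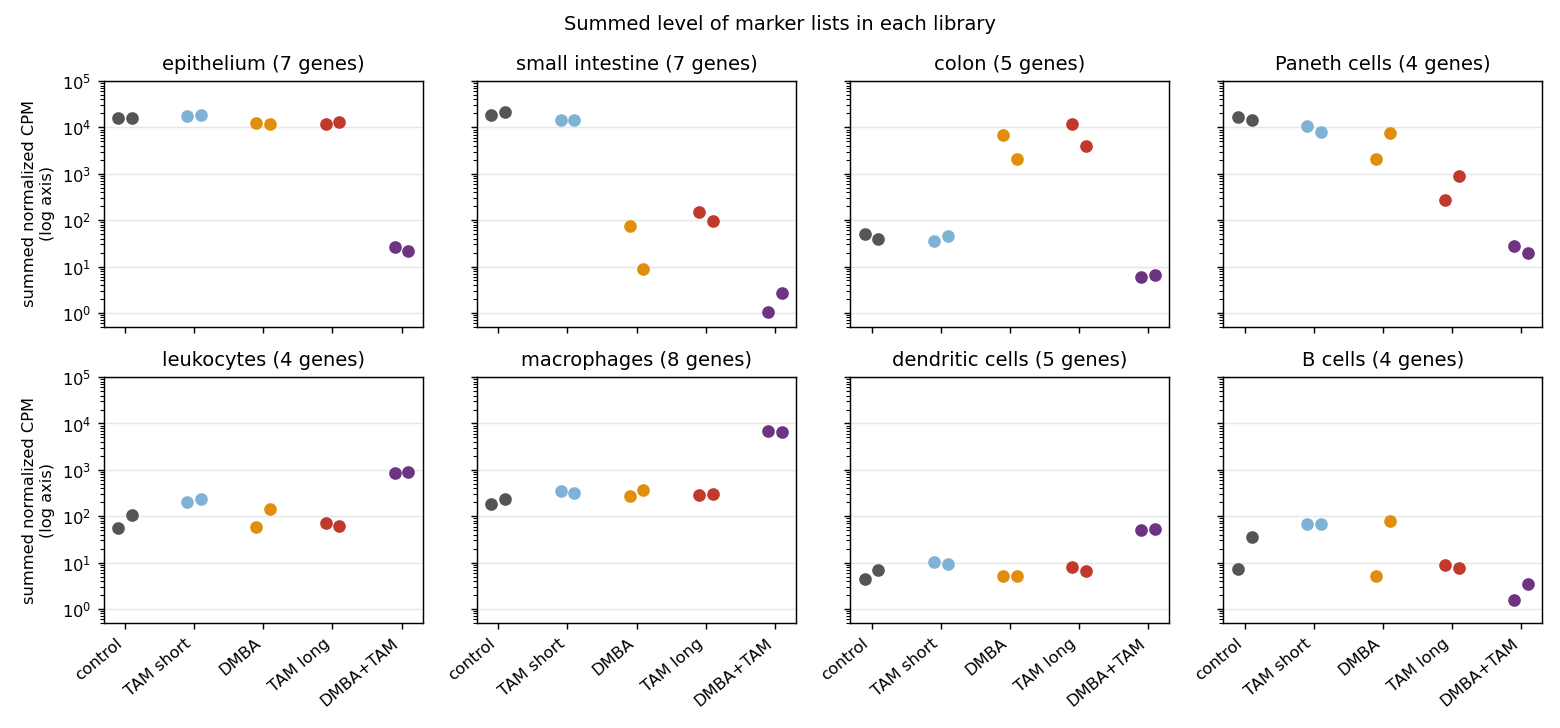
Summed normalized CPM of 8 marker lists (log axis) in each of the 2 libraries of each group, 1 point per library. In DMBA+TAM the epithelium list is at 26.9 and 21.6 and the macrophage list at 6947 and 6584, and the small intestine and colon lists exchange places between control and TAM short on one side and DMBA and TAM long on the other.

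All 9 receptors passed the filter on low counts, *Tlr9* only through DMBA+TAM, since just 1 of the other 8 libraries reached the limit of 1.02 CPM. *Tlr2* lies at chr3:83836272-83841767, *Tlr3* at chr8:45395665-45410608, *Tlr7* at chrX:167304929-167330558 and *Tlr8* at chrX:167242696-167264329, all on the minus strand as are *Tlr1* and *Tlr6*, and *Tlr4* at chr4:66827584-66930284, *Tlr5* at chr1:182954788-182976044 and *Tlr9* at chr9:106222598-106226883 lie on the plus strand (GRCm38). The receptors fell into 4 patterns. *Tlr1*, *Tlr2*, *Tlr4* and, at low counts, *Tlr5* had lower group means in control and TAM short than in the other groups, *Tlr6* was lowest in control and highest in DMBA+TAM, *Tlr7*, *Tlr8* and *Tlr9* were high in DMBA+TAM, and *Tlr3* was lowest in DMBA+TAM. Against control, edgeR called 4 of 9 higher in DMBA, where 24.5% of all 16179 genes tested were called higher, 23.3% lower and 47.8% in either direction, with a median log2 fold change of 0.95 for the receptors and 0.07 for all genes. It called 5 of 9 higher in TAM long (background 23.2% higher, 22.8% lower and 46.0% in all, medians 1.36 and 0.05) and 3 of 9 in TAM short (6.52% higher, 7.80% lower and 14.3% in all, medians 0.57 and -0.04). In DMBA+TAM, 7 of the 8 receptors that pass the filter without these libraries were called higher and 1 lower, where 29.0% of all genes were higher, 35.3% lower and 64.3% called, and the medians were 3.46 for these 8 and -0.17 for all genes. *Tlr9* was left out of these counts, since a gene that enters the test through DMBA+TAM had to be high there. The comparisons with control share the same 2 control libraries.

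**Figure D2:**
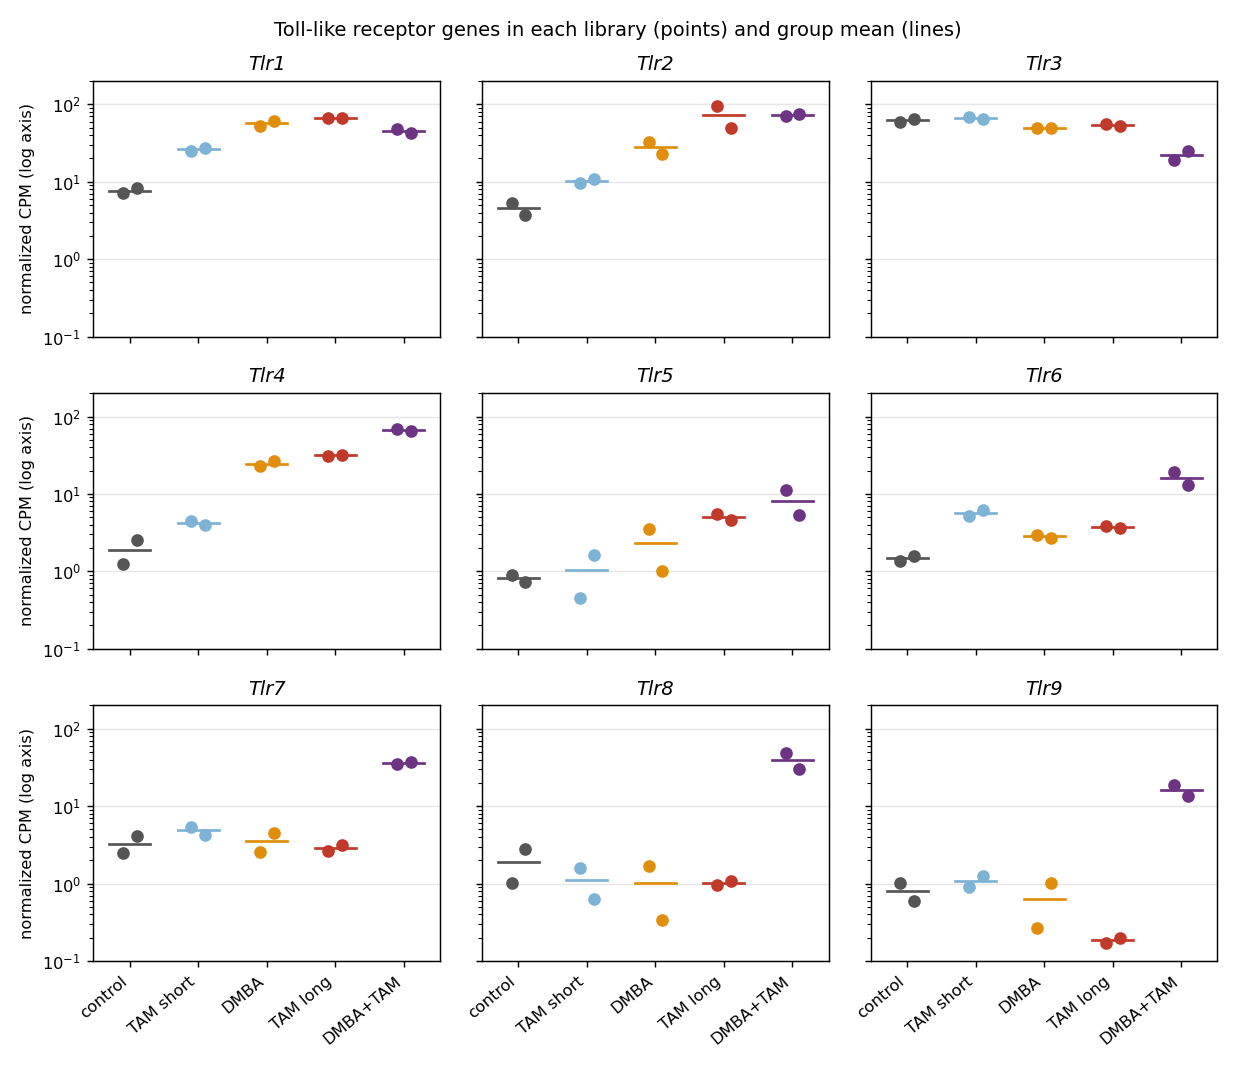
Normalized CPM (log axis) of each receptor gene in each library, 1 point per library, with the group mean as a line. *Tlr1*, *Tlr2* and *Tlr4* stand higher in DMBA and TAM long than in control, and *Tlr7*, *Tlr8* and *Tlr9* stand apart in DMBA+TAM.

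*Tlr4*, the receptor of lipopolysaccharide, had the largest estimates against control among the surface receptors in DMBA, TAM long and DMBA+TAM. In TAM long *Tlr2* lay close to it (3.99 beside 4.07), and in TAM short *Tlr6* (1.95) and *Tlr1* (1.77) stood above it. It had 1.24 and 2.53 normalized CPM in control, 4.41 and 3.91 in TAM short, 22.7 and 26.5 in DMBA, 31.1 and 32.2 in TAM long, and 68.6 and 65.6 in DMBA+TAM. The order of the groups is thus control, TAM short, DMBA, TAM long and DMBA+TAM, and no library of a group overlapped one of the next. TAM long against DMBA was not called, however (0.36, 95% interval -0.06 to 0.79, adjusted p = 0.325). Compared with control, *Tlr4* was 13.0-fold higher in DMBA (log2 fold change 3.70, SE 0.25, adjusted p = 3.64e-06, edgeR) and 16.8-fold higher in TAM long (4.07, SE 0.25, adjusted p = 1.99e-06). In DMBA+TAM it was 35.6-fold higher than in control (5.15, SE 0.26, adjusted p = 1.09e-07) and 2.12-fold higher than in TAM long (1.08, SE 0.19, adjusted p = 0.000986). TAM short exceeded control by 1.15 (SE 0.29, adjusted p = 0.0267), a call that was lost without control replicate 1 (0.72, adjusted p = 0.208) and without either TAM short replicate (adjusted p = 0.137 and 0.102), and on counts thinned to the smallest library the estimate was 0.13 (adjusted p = 0.956).

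*Tlr1* and *Tlr2*, which together form the receptor of triacylated lipoproteins, shared the rise in DMBA and TAM long. *Tlr1* had 7.12 and 8.19 normalized CPM in control, 25.2 and 27.0 in TAM short, 52.6 and 60.5 in DMBA, 66.2 and 66.9 in TAM long, and 47.5 and 43.2 in DMBA+TAM. It was highest in TAM long, and all groups were above control without overlap. Against control its log2 fold changes were 2.88 in DMBA (SE 0.14, adjusted p = 6.57e-07), 3.12 in TAM long (SE 0.14, adjusted p = 3.98e-07), 1.77 in TAM short (SE 0.14, adjusted p = 7.63e-05) and 2.56 in DMBA+TAM (SE 0.15, adjusted p = 3.14e-07). In contrast to *Tlr4*, *Tlr1* was lower in DMBA+TAM than in TAM long (-0.56, SE 0.13, adjusted p = 0.00537), and its difference from DMBA did not pass the test (-0.32, 95% interval -0.62 to -0.02, adjusted p = 0.0652, and 0.043 without DMBA replicate 1).

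*Tlr2* varied more between replicates. It had 5.31 and 3.73 normalized CPM in control, 9.72 and 11 in TAM short, 32.4 and 23.0 in DMBA, 95.3 and 49.1 in TAM long, and 69.7 and 74.9 in DMBA+TAM. Its TAM long libraries lay on both sides of those of DMBA+TAM, and the difference between these groups was 0.00 (95% interval -0.65 to 0.65). *Tlr2* was 6.11-fold higher in DMBA (2.61, SE 0.34, adjusted p = 0.000218) and 15.9-fold higher in TAM long (3.99, SE 0.34, adjusted p = 1.65e-05) and in DMBA+TAM (3.99, SE 0.35, adjusted p = 5.56e-06) than in control. In TAM short the estimate was 1.18 (95% interval 0.38 to 1.99, adjusted p = 0.0563), and DESeq2 called it (adjusted p = 0.0112).

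Printed here are the bases just upstream of the first annotated exon of *Tlr1* and *Tlr2*, since both genes rose together in DMBA and TAM long (RefSeq, build GRCm38.p6, 5′ to 3′), with motif matches in capitals, for *Tlr1* a PU.1 match and for *Tlr2* overlapping NF-kappaB matches.
*Tlr1*, chr5:64933564-64933808, minus strand: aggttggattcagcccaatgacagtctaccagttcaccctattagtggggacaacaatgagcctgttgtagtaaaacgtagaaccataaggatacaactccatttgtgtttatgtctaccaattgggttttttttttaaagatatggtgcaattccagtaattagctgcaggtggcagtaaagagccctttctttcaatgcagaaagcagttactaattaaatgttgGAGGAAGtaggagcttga
*Tlr2*, chr3:83841768-83841858, minus strand: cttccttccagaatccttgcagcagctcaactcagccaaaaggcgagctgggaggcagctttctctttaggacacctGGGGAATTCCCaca
Of the 9 receptors, 7 had promoters in the RefSeq table, with 9 windows of the 250 bases before a start, and 5 motifs were searched on both strands. NF-kappaB (by its name alone) matched 2 of the 9 windows and 7.3% of all 32851 promoters, PU.1 (GAGGAAG) 2 and 10.6%, Sp1 (GGGCGG) 2 and 32.7%, AP-1 (TGANTCA) 1 and 6.7%, and the interferon element ISRE (by its name alone) 1 and 3.0%. A match is the presence of these letters and not a site of binding.

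*Tlr5*, the flagellin receptor, had low counts. There were 8 and 6 counts in control (0.905 and 0.723 normalized CPM), 4 and 13 in TAM short (0.452 and 1.64), 40 and 9 in DMBA (3.57 and 1.01), 63 and 47 in TAM long (5.43 and 4.62), and 21 and 12 in DMBA+TAM (11.1 and 5.29). The DMBA libraries differed from each other, 1 standing among those of TAM short and the other above them. *Tlr5* was higher than in control in TAM long (2.60, SE 0.69, adjusted p = 0.0119) and in DMBA+TAM (3.28, SE 0.75, adjusted p = 0.00333, and 2.65 without DMBA+TAM replicate 1), and in DMBA the estimate was 1.51 (95% interval -0.11 to 3.12, adjusted p = 0.113, 0.28 with 0.817 without DMBA replicate 1, and 2.10 with 0.0233 without DMBA replicate 2). The call in TAM long was lost without control replicate 1 (adjusted p = 0.0703), control replicate 2 (0.0916) or TAM long replicate 1 (0.0551).

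*Tlr6*, the partner of TLR2 for diacylated lipoproteins, had another order of groups. It had 1.36 and 1.57 normalized CPM in control, 2.95 and 2.70 in DMBA, 3.88 and 3.64 in TAM long, while TAM short had 5.20 and 6.18, and DMBA+TAM had 19.0 and 13.2. Unlike *Tlr1*, *Tlr2* and *Tlr4*, it stood higher in TAM short than in DMBA or TAM long, and no neighbouring groups overlapped, although TAM long against TAM short was not called. *Tlr6* was 10.9-fold higher in DMBA+TAM than in control (3.44, SE 0.32, adjusted p = 7.97e-06), and 3.86-fold higher in TAM short (1.95, SE 0.31, adjusted p = 0.00319, and 2.03 with 0.128 on thinned counts). In TAM long the change was 1.36 (SE 0.32, adjusted p = 0.00625), lost without control replicate 1 (adjusted p = 0.0501). In DMBA it was 0.95 (SE 0.32, adjusted p = 0.0361), lost without any 1 of the 4 libraries compared (adjusted p = 0.0646 to 0.158) and with DESeq2 (adjusted p = 0.0903).

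*Tlr1* and *Tlr6* are neighbours on the minus strand of chromosome 5 (*Tlr1* chr5:64924679-64933563, *Tlr6* chr5:64952031-64960097, GRCm38) and share coding sequence. Of the 50-base words in their annotated exons, 13.6% of those of *Tlr1* also occur in *Tlr6* and 12.3% of those of *Tlr6* in *Tlr1*. The longest identical stretch, within the coding sequence of both, is shown because reads from it cannot be assigned to either gene, so the counts of both are uncertain to that extent.
*Tlr1*, chr5:64925537-64925765, and *Tlr6*, chr5:64953828-64954056, minus strand: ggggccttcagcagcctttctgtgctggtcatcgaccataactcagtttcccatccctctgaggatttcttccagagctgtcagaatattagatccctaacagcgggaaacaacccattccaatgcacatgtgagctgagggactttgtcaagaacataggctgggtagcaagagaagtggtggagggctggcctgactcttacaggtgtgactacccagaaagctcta
The patterns of the genes sharing these 229 bases differed, since *Tlr1* was higher and *Tlr6* lower in DMBA than in TAM short, in every library.

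Since control and TAM short carried the markers of the small intestine and DMBA and TAM long those of the colon, the same contrast was made between these pairs. Between DMBA with TAM long and control with TAM short, 4 receptors were called higher, where 30.4% of all genes were called higher, 27.5% lower and 57.8% in all. These were *Tlr1* (2.12, SE 0.09, adjusted p = 1.68e-07), *Tlr2* (2.71, SE 0.23, adjusted p = 8.67e-06), *Tlr4* (3.31, SE 0.17, adjusted p = 3.28e-07) and *Tlr5* (1.89, SE 0.49, adjusted p = 0.00826, and 1.27 with adjusted p = 0.0557 without DMBA replicate 1). *Tlr3* (-0.31, adjusted p = 0.012) and *Tlr9* (-1.43, adjusted p = 0.0323) were called lower, and with scaling by library size only neither call held (-0.04, adjusted p = 0.734, and -1.18, adjusted p = 0.061). The call of *Tlr3* was also lost without control replicate 2, TAM short replicate 1 or TAM long replicate 2 (adjusted p = 0.0522 to 0.0548), and that of *Tlr9* without control replicate 1, DMBA replicate 1 or any 1 of the 4 tamoxifen libraries (0.0507 to 0.121). Other marker lists moved with this contrast. All 6 fibroblast markers were called higher (sums of 1159 to 2009 normalized CPM in DMBA and TAM long against 616 to 1254), as were 3 of 4 endothelial markers (62.3 to 92.6 against 48.7 to 62.1) and 3 of 8 macrophage markers, with 1 lower (274 to 362 against 183 to 353). Of the 4 neutrophil markers 1 was called, *Ly6g*, with no count in control and TAM short and means of 34.3 in DMBA and 26.4 in TAM long, while *S100a9* had 0.145 and 0.271 there against 0.463 in control. Called lower were 2 of 4 leukocyte, 2 of 3 T cell and 3 of 4 Paneth cell markers, and of the 7 epithelial markers 3 were lower and 1 higher (11798 to 13190 against 15576 to 18792). The part of these transcripts in the calls was not tested. TAM long against DMBA gave a call for *Tlr2* alone (1.38, SE 0.29, adjusted p = 0.0396), where 1.24% of all genes were called higher, 1.46% lower and 2.70% in all, and it was lost without TAM long replicate 1 (0.82, adjusted p = 0.237) or DMBA replicate 2 (1.16, adjusted p = 0.107). In TAM long against DMBA 2 of 6 fibroblast and 1 of 4 Paneth cell markers were called lower, and their part was not tested. TAM short against control gave the calls of *Tlr1*, *Tlr4* and *Tlr6* above, beside the differing small intestine markers, 2 of 4 leukocyte markers called higher (sums of 205 and 230 against 56.2 and 107) and B cell sums of 67.3 and 66.5 against 7.12 and 36.4. In the same comparison 2 of 8 macrophage markers (353 and 318 against 183 and 235) and 1 of 3 T cell markers were called higher, and 3 of 6 fibroblast markers (740 and 616 against 1254 and 1088) and 1 of 4 endothelial markers lower, and the part of these transcripts was not tested. TAM long against TAM short sets the same agent under the labels long and short, whose meaning is not stated, and also different regional markers. This comparison gave *Tlr1* (1.35, adjusted p = 4.38e-05), *Tlr2* (2.80, adjusted p = 0.000121), *Tlr4* (2.92, adjusted p = 1.4e-05) and *Tlr5* (2.28, adjusted p = 0.0214) as higher and *Tlr9* (-2.45, adjusted p = 0.0246) as lower, where 22.0% of all genes were higher, 20.3% lower and 42.2% called. Beside these calls all 6 fibroblast, 3 of 4 endothelial, 1 of 4 neutrophil and 1 of 7 epithelial markers were called higher, and all 4 leukocyte (71.1 and 60.3 against 205 and 230.0), 2 of 8 macrophage, 1 of 4 B cell, 2 of 3 T cell, 3 of 4 Paneth cell and 3 of 7 epithelial markers lower, and their part was not tested. The call of *Tlr5* was lost without TAM short replicate 1 (1.6, adjusted p = 0.16, and 3.43 without TAM short replicate 2) or either TAM long replicate (0.0884 and 0.0646), and that of *Tlr9* without any 1 of the 4 libraries (0.0572 to 0.118).

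**Figure D3:**
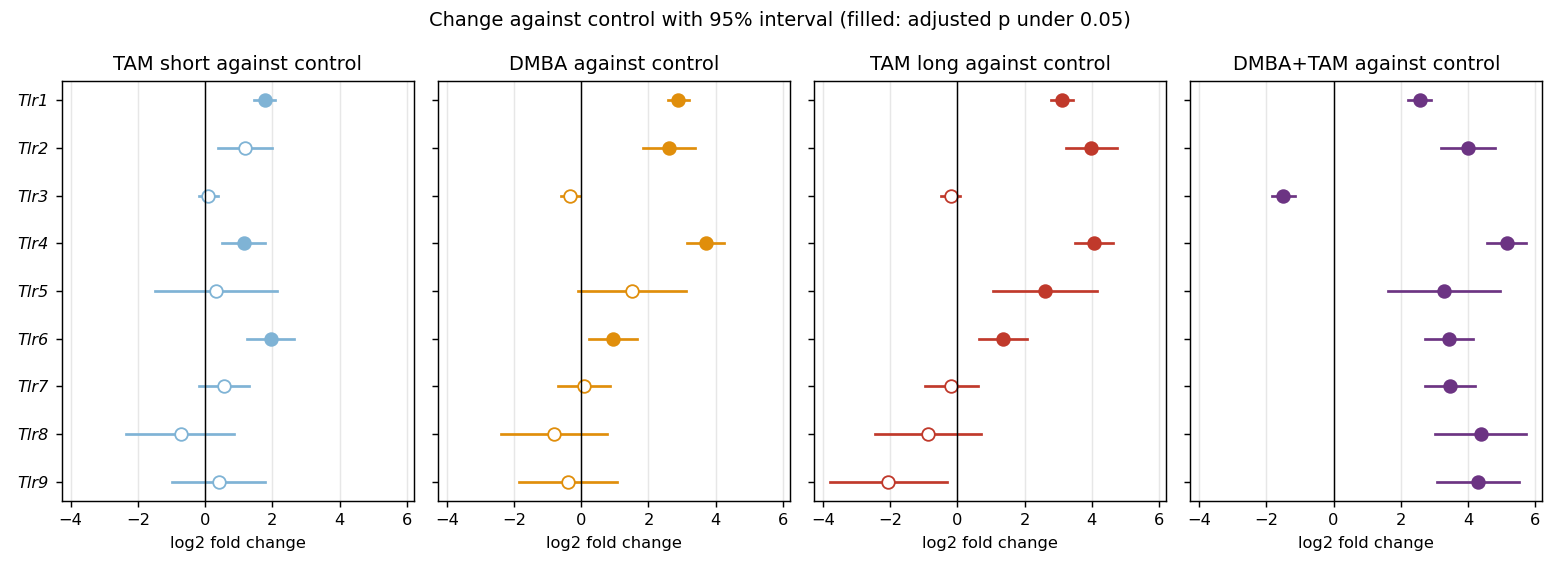
Log2 fold change of each receptor gene against control in 4 groups, with its 95% interval from the edgeR fit (filled points have an adjusted p under 0.05). The surface receptors *Tlr1*, *Tlr2* and *Tlr4* lie at 2.61 to 4.07 in DMBA and TAM long, and *Tlr7*, *Tlr8* and *Tlr9* at 3.47 to 4.39 in DMBA+TAM, through which alone *Tlr9* entered the test.

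*Tlr7*, *Tlr8* and *Tlr9*, the endosomal receptors of single-stranded RNA and CpG DNA, were high in DMBA+TAM. *Tlr7* had 2.49 and 4.09 normalized CPM in control, 5.42 and 4.29 in TAM short, 2.59 and 4.49 in DMBA, 2.67 and 3.14 in TAM long, and 35.4 and 37.4 in DMBA+TAM. Except in DMBA+TAM its groups overlapped or lay close together. *Tlr7* was 11.1-fold higher in DMBA+TAM than in control (3.47, SE 0.33, adjusted p = 9.39e-06) and 12.5-fold higher than in TAM long (3.64, SE 0.33, adjusted p = 8.77e-06). Its differences from control in the other groups did not pass the test, with 95% intervals of -0.68 to 0.86 in DMBA, -0.95 to 0.60 in TAM long and -0.19 to 1.32 in TAM short.

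*Tlr8*, its neighbour on the X chromosome, had 1.02 and 2.77 normalized CPM in control, 1.58 and 0.631 in TAM short, 1.70 and 0.337 in DMBA, 0.949 and 1.08 in TAM long, and 49.1 and 30.4 in DMBA+TAM. The first 4 groups overlapped, at 3 to 23 counts per library. *Tlr8* was 20.9-fold higher in DMBA+TAM than in control (4.39, SE 0.60, adjusted p = 0.000124) and 36.6-fold higher than in DMBA (5.20, SE 0.63, adjusted p = 7.81e-05). The sizes depended on single libraries, since the log2 fold change against DMBA was 6.80 without DMBA replicate 1 and 4.51 without DMBA replicate 2, and that against control was 3.80 without control replicate 1 and 5.23 without control replicate 2, all of them called. In DMBA, TAM long and TAM short its estimates against control were -0.81, -0.88 and -0.73, none past the test.

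*Tlr9* rested on the fewest counts. There were 9 and 5 counts in control (1.02 and 0.602 normalized CPM), 8 and 10 in TAM short (0.904 and 1.26), 3 and 9 in DMBA (0.268 and 1.01), 2 and 2 in TAM long (0.173 and 0.197), and 36 and 31 in the much smaller DMBA+TAM libraries (19.0 and 13.7). DMBA+TAM stood above every other library. Because *Tlr9* entered the test only through DMBA+TAM, its means there (16.3 normalized CPM) and in control (0.81) are given as a description, with no test. The difference between TAM long and control did not pass the test (-2.06, 95% interval -3.79 to -0.32, adjusted p = 0.0532).

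Of these genes *Tlr8* and *Tlr9* had a promoter entry, shown because both were high in DMBA+TAM. In capitals are, for *Tlr9*, a PU.1 match and, nearer the start, an AP-1 match, while *Tlr8* held none of the 5 motifs in its window.
*Tlr8*, chrX:167264330-167264579, minus strand: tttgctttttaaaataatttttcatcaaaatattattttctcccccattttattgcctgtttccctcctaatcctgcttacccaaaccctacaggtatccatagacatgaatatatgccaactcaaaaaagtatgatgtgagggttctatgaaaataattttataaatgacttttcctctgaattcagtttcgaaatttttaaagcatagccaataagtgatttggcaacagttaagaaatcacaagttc
*Tlr9*, chr9:106222348-106222597, plus strand: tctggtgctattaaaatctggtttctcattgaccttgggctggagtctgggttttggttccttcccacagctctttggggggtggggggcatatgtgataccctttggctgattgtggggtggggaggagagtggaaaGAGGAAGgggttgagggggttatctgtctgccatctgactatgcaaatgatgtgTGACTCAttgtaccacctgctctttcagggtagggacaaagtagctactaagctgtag

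Macrophage markers moved with these receptors. All 8 (*Cd68*, *Csf1r*, *Adgre1*, *Cd163*, *Mrc1*, *C1qa*, *C1qb*, *Lyz2*) were called higher in DMBA+TAM than in control, and their sum was 183 and 235 normalized CPM in control, 274 and 362 in DMBA, 353 and 318 in TAM short, 288 and 298 in TAM long, and 6947 and 6584 in DMBA+TAM. None of the 8 was at 0 in any library. The 5 dendritic cell markers summed to 4.52 to 10.5 in the other groups and 51.7 and 52.4 in DMBA+TAM, and the 4 leukocyte markers to 56.2 to 230.0 and to 848 and 893. The 4 neutrophil markers summed to 104 and 83.3 in DMBA+TAM and to 0.964 to 62.7 elsewhere. *Csf3r* had a mean of 50.4 there against 0.75 in control, *S100a9* 29.5 against 0.463 and *S100a8* 13.6 against 0.173, while *Ly6g* had no count in either group. The 3 T cell markers had 0 counts in both DMBA+TAM libraries, which allows up to 1.58 and 1.32 normalized CPM for each, and the 4 B cell markers summed to 1.58 and 3.52 there, with 1 of 4 at 0 in each. All 6 fibroblast markers were called higher against control as well, with sums of 30614 and 31523 in DMBA+TAM and 616 to 2009 elsewhere, and all 4 endothelial markers, with sums of 501 and 500 and 48.7 to 92.6. In bulk libraries a change in the number of cells of a type and in the RNA per cell cannot be told apart. The part of any of these transcripts in the rise of the receptors was not tested.

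Set against the macrophage sum, the receptors split. Per 1000 normalized CPM of the macrophage list, *Tlr7* stood at 13.6 and 17.4 in control, at 9.45 and 12.4 in DMBA, at 9.28 and 10.6 in TAM long, at 15.4 and 13.5 in TAM short and at 5.09 and 5.69 in DMBA+TAM, the latter lower than in every other library on this scale. *Tlr8* had 7.07 and 4.62 in DMBA+TAM, 5.56 and 11.8 in control, 6.19 and 0.932 in DMBA, 4.49 and 1.98 in TAM short, and 3.29 and 3.63 in TAM long. In DMBA+TAM it thus overlapped control and DMBA and stood above TAM long. Its lower value there (4.62) lay next to the higher of TAM short (4.49), both from few counts. *Tlr9* had 2.74 and 2.07 in DMBA+TAM, 5.56 and 2.56 in control, 0.977 and 2.80 in DMBA, 2.56 and 3.96 in TAM short, and 0.599 and 0.66 in TAM long, which alone lay below DMBA+TAM without overlap. By contrast, *Tlr4* per 1000 was 6.79 and 10.8 in control and 9.88 and 9.97 in DMBA+TAM but 82.7 and 73.3 in DMBA and 108 in both TAM long libraries. *Tlr1* likewise had 192 and 167 in DMBA and 230 and 225 in TAM long against 38.9 and 34.8 in control, and 6.84 and 6.56 in DMBA+TAM. The rise of *Tlr1* and *Tlr4* in DMBA and TAM long was therefore larger than that of the macrophage sum, and their part from other cells was not tested.

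*Tlr3*, the receptor of double-stranded RNA, was the 1 receptor that was lower in DMBA+TAM than in every other group. It had 60.0 and 64.7 normalized CPM in control, 67.8 and 65.5 in TAM short, 49.9 and 49.5 in DMBA, 56.2 and 52.3 in TAM long, and 19.0 and 25.1 in DMBA+TAM. The first 4 groups lay within 49.5 to 67.8, all above DMBA+TAM. *Tlr3* fell 2.81-fold against control (-1.49, SE 0.15, adjusted p = 1.13e-05), 3.00-fold against TAM short (-1.59, adjusted p = 7.69e-06), 2.24-fold against DMBA (-1.16, adjusted p = 9.68e-05) and 2.44-fold against TAM long (-1.29, adjusted p = 4.44e-05). In DMBA, TAM long and TAM short the estimates against control were -0.33 (adjusted p = 0.0535), -0.20 (0.211) and 0.10 (0.666). The 7 epithelial markers had a median log2 fold change of -9.18 in DMBA+TAM against control, beside the -1.49 of *Tlr3*. An antisense transcript, *Gm45542*, covers 7.32% of the exonic bases of *Tlr3* (381 bases), and reads of both cannot be told apart there without strand.

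Between genes, levels were compared on the deposited FPKM scale, which by definition divides by length. It does not follow the gene lengths deposited beside it for every receptor. In DMBA+TAM replicate 1 *Tlr4* (130 counts, 4077 bases) had 46.0 and *Tlr2* (132 counts, 3014 bases) had 27.5. The order of genes and the shares given here therefore hold on this scale only. In control the order was *Tlr3* (12.7 ± 0.364, SD, n = 2), *Tlr1* (3.11 ± 0.232), *Tlr7* (1.37 ± 0.441), *Tlr2* (1.27 ± 0.344), *Tlr8* (0.999 ± 0.635), *Tlr4* (0.894 ± 0.412), *Tlr6* (0.598 ± 0.0462), *Tlr5* (0.306 ± 0.0556) and *Tlr9* (0.198 ± 0.0761), and from *Tlr7* to *Tlr4* neighbours lay within their spread. *Tlr3* made up 61.4% and 57.3% of the summed FPKM of the 9 genes in control, 40.1% and 38.3% in TAM short, 18.2% and 17.5% in DMBA, 13.4% and 14.8% in TAM long, and 2.92% and 4.36% in DMBA+TAM. The 5 surface receptors together held 29.5% and 28.2% in control, 50.3% and 54.7% in TAM short, 78.2% and 78.5% in DMBA, 84.6% and 82.5% in TAM long, and 62.9% and 65.8% in DMBA+TAM. *Tlr7*, *Tlr8* and *Tlr9* together held 34.2% and 29.9% in DMBA+TAM and 1.95% to 14.5% elsewhere. *Tlr1* led in DMBA (28.3 ± 0.0227) and TAM long (33.8 ± 0.0941), where its neighbour *Tlr2* (25.3 ± 11.7) did not differ from it beyond the spread. In DMBA+TAM *Tlr4* led on this scale (45.0 ± 1.53), followed by *Tlr8* (29.7 ± 9.95), *Tlr2* (28.5 ± 1.38) and *Tlr1* (25.9 ± 1.82), which lay close together. By counts and deposited lengths *Tlr2* (132 and 170 counts) would stand above *Tlr4* (130 and 149 counts) in both libraries.

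**Figure D4:**
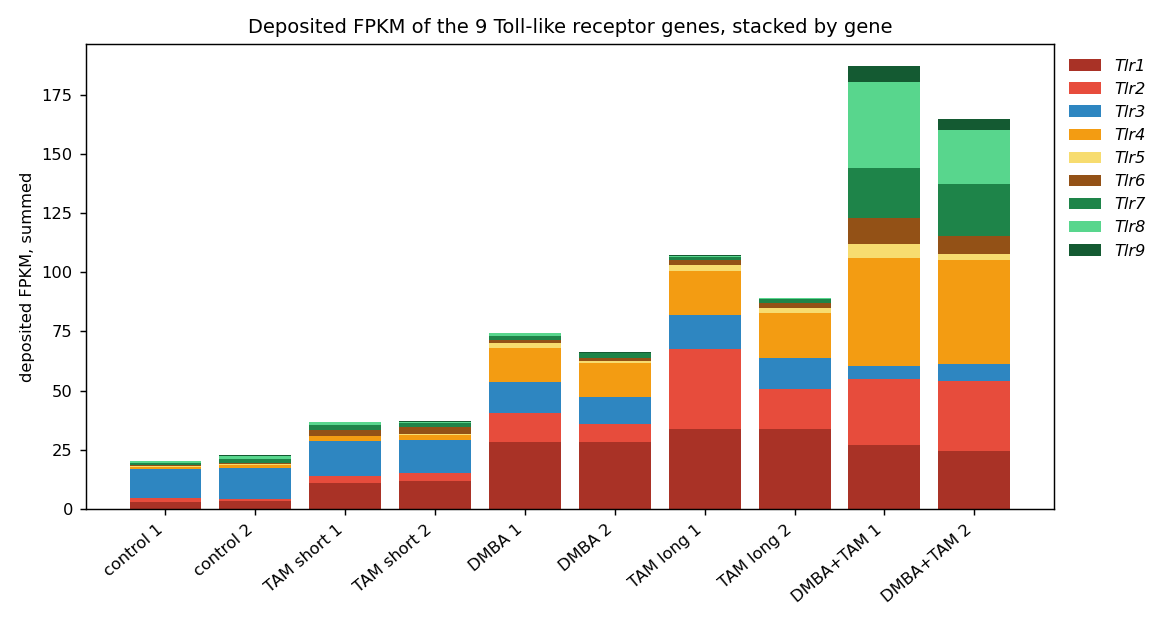
Deposited FPKM of the 9 receptor genes stacked in each library (linear axis from 0), a scale that does not follow the deposited gene lengths for every gene. *Tlr3* is the largest part in control (61.4% and 57.3%), the surface receptors in DMBA and TAM long (78.2% to 84.6%), and *Tlr7*, *Tlr8* and *Tlr9* hold 34.2% and 29.9% in DMBA+TAM.

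DMBA+TAM was also set against each treated group, again for the 8 receptors other than *Tlr9*. Against DMBA, 6 receptors were called higher and *Tlr3* lower, where 25.2% and 29.9% of all genes were called in these directions (55.1% in all). Against TAM long 4 were higher (*Tlr4*, *Tlr6*, *Tlr7*, *Tlr8*) and *Tlr1* and *Tlr3* lower (25.3% and 29.9%, 55.2% in all), and against TAM short 7 were higher and *Tlr3* lower (29.3% and 33.8%, 63.1% in all). The call of *Tlr5* against DMBA (1.78, SE 0.66, adjusted p = 0.0427) was lost without DMBA+TAM replicate 1 (1.16, adjusted p = 0.298) or DMBA replicate 2 (1.15, adjusted p = 0.14) and was 2.97 without DMBA replicate 1, and against TAM short (2.96, adjusted p = 0.00542) without DMBA+TAM replicate 1 (2.33, adjusted p = 0.0615), with 2.26 and 4.08 without TAM short replicate 1 and 2. Whether both agents together differed from the sum of DMBA and TAM long (an interaction) was called for 6 of the 8 receptors, 2 positive and 4 negative, where 21.6% of all genes had a positive and 26.5% a negative call (48.2% in all).

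The other genes of the pathway were counted in lists of 57 genes, of which 55 were analysed here and 52 passed the filter. Against control, 26 were called higher and 15 lower in DMBA+TAM. Of the 52, 5 (*Ticam2*, *Sarm1*, *Il6*, *Cxcl1* and *Cxcl2*) passed the filter only through DMBA+TAM, and of the other 47 genes 22 were higher and 15 lower, where 29.0% and 35.3% of all genes were. DMBA had 11 higher and 14 lower, near the 24.5% and 23.3% of all genes, and TAM long had 12 and 12, near 23.2% and 22.8%. TAM short had 12 higher and 2 lower, where 6.52% and 7.80% of all genes were called. Of the other mouse receptors, *Tlr13*, a sensor of bacterial ribosomal RNA, went from 2.76 ± 0.866 in control to 89.4 ± 6.95 normalized CPM with both agents (SD, n = 2; 32.4-fold, 5.02, adjusted p = 6.31e-08), and it was lower in DMBA (-0.79, adjusted p = 0.0377), with estimates of -0.20 for TAM long and 0.12 for TAM short that did not pass. Its pattern was like that of *Tlr7*, *Tlr8* and *Tlr9*. *Tlr12* had 1 to 42 counts and did not pass the test in these groups, and *Tlr11* had 0 to 5 counts and was not tested.

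Co-receptors and chaperones were higher in DMBA+TAM for 6 of 7, where 29.0% of all genes were higher. *Lbp*, which delivers lipopolysaccharide, rose 111-fold (6.79, adjusted p = 1.2e-08), *Unc93b1*, the chaperone that brings the nucleic acid receptors to endosomes, 7.54-fold (2.91, adjusted p = 3.08e-07), and *Cd36*, a co-receptor of TLR2 and TLR6, 6.17-fold (2.62, adjusted p = 0.000257). *Cd36* was lower than in control in DMBA (-1.36), TAM long (-2.24) and TAM short (-2.31). *Hsp90b1*, which folds most of these receptors, stood at 774 in control and 752 with both agents (normalized CPM; -0.04, adjusted p = 0.884), and it was lower than in control in DMBA (-1.0, adjusted p = 0.00433) and likewise in TAM long (-0.68, adjusted p = 0.0277). *Unc93b1* also rose in TAM short (0.99, adjusted p = 0.00362), in DMBA (0.57, adjusted p = 0.0164) and in TAM long (0.60, adjusted p = 0.0128).

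Of the 4 adaptors, 3 passed the filter without DMBA+TAM, and 2 of them rose and 1 fell against control in that group (29.0% and 35.3% of all genes). *Myd88*, used by all of the 9 receptors but TLR3, rose 1.72-fold (0.78, adjusted p = 0.000938), and *Tirap* 2.40-fold (1.26, adjusted p = 0.00034). *Ticam2*, which links TLR4 to TRIF, had a mean of 9.42 normalized CPM in DMBA+TAM, through which alone it entered the test, and of 0.241 in control. *Ticam1*, which encodes TRIF and serves TLR3 and TLR4, fell in DMBA+TAM (-2.29, adjusted p = 8.37e-07), in TAM long (-1.13, with 7.75e-05 as its p) and in DMBA (-0.89, with 0.00032), while the estimate for TAM short was 0.11 (adjusted p = 0.615). *Ticam1* thus fell in groups in which *Tlr3* did not pass the test.

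Of the 14 kinases and ubiquitin ligases, 3 were higher and 5 lower in DMBA+TAM, shares near the 29.0% and 35.3% of all genes. *Tbk1* and *Chuk*, kinases of the interferon and NF-kappaB arms, fell in DMBA+TAM (-1.54 and -2.20), DMBA (-1.33 and -1.20) and TAM long (-1.0 and -0.88), with adjusted p of 0.00026 or less, whereas *Tab2* (0.16) and *Map3k7* (0.20) did not pass in DMBA+TAM. *Tab2* was higher in TAM short (0.41, adjusted p = 0.0254) and lower in DMBA (-0.28, adjusted p = 0.0457). Of the 8 transcription factors 4 were higher and 3 lower there. *Irf7* fell from 372 to 86.3 normalized CPM (-2.10, adjusted p = 2.99e-05), and *Irf3* (-0.90) and *Relb* (-0.87) fell as well, while *Nfkb1* was 0.30 (adjusted p = 0.0597). Among the 4 called higher, *Irf5* rose from 3.58 to 55.4 (3.95, adjusted p = 1.14e-06). Of the 8 inhibitors that passed the filter without DMBA+TAM, 3 were higher and 5 lower against the same shares, and *Tollip* (-1.14), *Nfkbia* (-0.74), *Cyld* (-0.65) and *Tnfaip3* (-1.09) were among the latter. The 3 higher ones were *Ly86* (5.82), *Cd180* (4.89) and *Irak3* (4.56).

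Genes that these receptors can induce included the largest changes of the lists. Of 8 tested, 5 passed the filter without DMBA+TAM, and 3 of these were higher there than in control and 1 was lower (29.0% and 35.3% of all genes). *Saa3*, an acute phase gene, rose from 0.998 ± 0.292 to 269 ± 82.9 normalized CPM (SD, n = 2; 8.06, adjusted p = 6.04e-06) and *Ptgs2*, which encodes cyclooxygenase, 23.2-fold (4.54, adjusted p = 1.47e-06), whereas the chemokine gene *Ccl5* fell (-2.94, adjusted p = 3.9e-05) and *Nfkbiz* did not pass the test (-0.33, adjusted p = 0.171). *Nfkbiz* was higher in TAM long (1.19, adjusted p = 0.000663), as it was in TAM short (1.08, adjusted p = 0.00451). *Ptgs2* also rose by 1.95 in DMBA (adjusted p = 0.000999) and by 2.24 in TAM long (0.000429), and *Ccl5* fell by 2.34 in DMBA (8.42e-05) and by 2.61 in TAM long (4.72e-05). *Ifnb1* had no count in any library and *Il12b* at most 4, and both were below the filter.

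**Figure D5:**
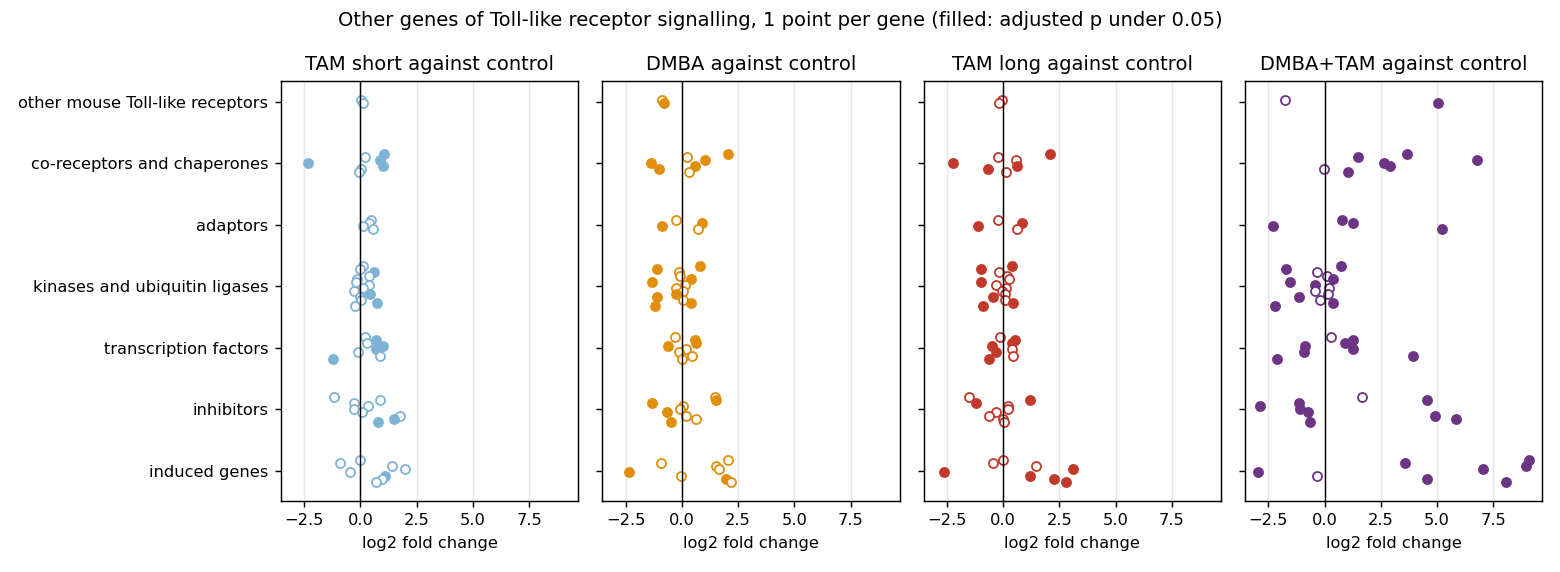
Log2 fold change against control of the other genes of Toll-like receptor signalling in 4 groups, 1 point per gene and 1 row per list (filled points have an adjusted p under 0.05). In DMBA+TAM 22 of the 47 genes that pass the filter without that group are higher and 15 lower (29.0% and 35.3% of all genes), and in TAM short 12 and 2 of 52 (6.52% and 7.80%).

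The genes whose levels followed each receptor most closely over the 10 libraries were listed by Pearson r of log2 normalized CPM, as a description, since the libraries share groups. For *Tlr7* these were *Ms4a6c* (r = 0.995), *Cybb* (0.993) and *Tyrobp* (0.993), for *Tlr9* *Pabpc1* (0.985), *Was* (0.984) and *Cd209b* (0.982), and for *Tlr8* *Pik3r6* (0.988), *Ggt5* (0.975) and *Mef2a* (0.975). For *Tlr3* they were *Lrrc19* (0.997), *Fam83b* (0.997) and *Stap2* (0.995), and for *Tlr4* *Smpd1* (0.992), *Nxpe5* (0.99) and *Anxa1* (0.989). *Tlr1* was closest to *Slc2a13* (0.973), *Tlr2* to *Cln3* (0.976), *Tlr5* to *Zkscan4* (0.965) and *Tlr6* to *Rap1gds1* (0.989). Among the receptors themselves, r was 0.96 between *Tlr7* and *Tlr9*, 0.91 between *Tlr7* and *Tlr8*, 0.94 between *Tlr2* and *Tlr4*, and 0.03 between *Tlr1* and *Tlr9*. Since *Tlr9* passed the filter only through DMBA+TAM, it had to be high there. A high r of *Tlr9* with other genes high in that group was thus largely set in advance.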

How the data were processed

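The authors mapped reads of poly-A libraries with TopHat 2.0.12 to GRCm38.p6, counted them per gene with HTSeq 0.6.1 and deposited 1 table with raw counts and FPKM (fragments scaled by gene length and library total) of all 10 libraries. Whether counting used strand is not given in the sources used here. The deposited fold changes and p-values of the authors' own comparisons were not used. The 47074 lines of the table gave 47069 genes after 5 lines without counts were left out, and 98.77% of the IDs were found in GENCODE M21.

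The test was the quasi-likelihood F test of edgeR 4.0.16 under R 4.3.3 on the deposited counts, after filterByExpr by group and TMM, with 5 group means and 5 residual degrees of freedom. P-values were adjusted by Benjamini-Hochberg over all 16179 genes tested with a threshold of 0.05, and normalized CPM uses TMM totals. Standard errors and 95% intervals were derived from the F statistic. Besides 9 pairwise comparisons, the interaction of DMBA and TAM long, and DMBA with TAM long against control with TAM short, were tested. With 2 libraries against 2, an exact permutation test cannot go below p = 0.333, so the model across genes was used. Nothing says that the 2 libraries of a group came from separate cultures, so p-values measure the spread between these libraries, which may be technical. The groups share 1 estimate of this spread per gene, but their replicates were not equally alike. The chi-square per degree of freedom between the counts of 2 replicates was 67.05 in DMBA and 23.2 in TAM long, against 5.57 to 7.21 elsewhere. B cell markers, for example, summed to 5.09 and 80.4 normalized CPM in the DMBA libraries. The script was tested on simulated data. The alternatives were DESeq2 1.42.0, library size only, no filter, the compared groups alone, a replicate block, leaving out each replicate, counts thinned to 1592366, and limma 3.58.1 on log2(FPKM + 0.1). Figures and summaries used Python 3.11.15.

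The members and lists were chosen with earlier results of these data known. Named were all 9 members, and of each pathway list at most the 4 genes of highest mean CPM and any below the filter. *Irf5*, *Ly86*, *Cd180* and *Irak3* were named besides, as genes called higher in DMBA+TAM. The 3 genes most alike were taken by Pearson r of log2 CPM with a prior count of 2. *Tnf* and *Il1b* of the lists were not analysed here.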

Additional observations from a re-analysis of the deposited data

Results flagged for a closer look

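For 6 of the 8 receptors that pass the filter without DMBA+TAM the change with DMBA and tamoxifen together differed from the sum of the changes in DMBA and TAM long (the interaction, edgeR, 2 libraries per group, where 48.2% of all genes were called). The difference was negative for *Tlr1* (-3.44, SE 0.19, adjusted p = 5.92e-07), *Tlr2* (-2.61, SE 0.45, adjusted p = 0.000976), *Tlr4* (-2.62, SE 0.32, adjusted p = 0.000106, and -3.21 without control replicate 2) and *Tlr3* (-0.96, SE 0.19, adjusted p = 0.0024). It was positive for *Tlr7* (3.55, SE 0.47, adjusted p = 0.000192) and *Tlr8* (6.08, SE 0.94, adjusted p = 0.000508, and 5.19 without control replicate 2, 7.71 without DMBA replicate 1 and 5.40 without DMBA replicate 2). The estimate for *Tlr9*, 6.75, is given as a description with no test, since *Tlr9* entered the test only through DMBA+TAM and had 2 counts in each TAM long library. The 8 macrophage markers all had a positive interaction and the 7 epithelial markers a negative one, and their part in these values was not tested. The interaction also sets libraries with colon markers (DMBA, TAM long) against control libraries with small intestine markers, so treatment and region cannot be told apart in it.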

How the results depend on the processing

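Of 59 called tests of single receptors, those of *Tlr9* in comparisons with DMBA+TAM left out, none changed direction in 695 repeats under the alternatives, 638 kept their side of the threshold and 57, in 13 tests, lost it. Scaling by library size only moved the median log2 fold change of all genes, from -0.17 to 0.31 in DMBA+TAM against control and from 0.07 to 0.38 in DMBA against control. On thinned counts fewer of all genes were called, 4618 of 12847 instead of 7444 of 16179 in TAM long against control. In TAM short against control these were 1284 of 12847 instead of 2317 of 16179. Of 9 receptors, 3 instead of 5 were called in TAM long against control, and 1 instead of 3 in TAM short against control, on thinned counts. Leaving out 1 library gave 3 to 5 calls in TAM long against control and 3 to 4 in TAM long against TAM short (5 with all libraries). In TAM long against DMBA edgeR made 0 calls in place of 1 with library size only and on thinned counts. It also made 0 with the groups compared alone, as did limma. In these settings 315 of 16179, 214 of 12847, 29 of 14807 and 199 of 16179 genes were called, instead of 437 of 16179. In each of them 1 receptor had an unadjusted p under 0.05. DESeq2 made 1 call, where 807 of 16179 genes were called.

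Some estimates that were not called changed sign. Against control these were, in DMBA, *Tlr7* (-0.98 thinned; -0.35 to 0.48 leaving out 1 library), *Tlr8* (-2.45 to 0.05 leaving out 1) and *Tlr9* (-1.56 to 0.28); in TAM long, *Tlr3* (0.12 with library size only, 0.06 thinned, 0.12 with limma), *Tlr7* (0.14, and 0.17 with limma; -0.50 to 0.21 leaving out 1) and *Tlr8* (0.16 thinned); in TAM short, *Tlr3* (-0.01 thinned), *Tlr9* (-1.0 thinned), *Tlr5* (-0.83 to 0.99 leaving out 1) and *Tlr8* (-1.55 to 0.14). In DMBA+TAM against TAM long *Tlr2* was -0.05 without the filter and -0.41 to 0.54 leaving out 1. The cause of these changes was not tested.

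Replicate numbers did not pair the libraries: deviations with the same number correlated at -0.041 to 0.26. With the replicate number as a block *Tlr6* in DMBA against control was no longer called (0.94, adjusted p = 0.0528) and *Tlr2* in TAM short was (1.21, adjusted p = 0.0305). The small DMBA+TAM libraries limit genes of a few counts, *Tlr12* and *Tlr11* most.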
